A study of Mus musculus with 144 samples.

Results

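The RNA described here is the polysomal RNA of wild-type mouse liver on either side of lights off. It comprises 12 of the 144 libraries of the series, 6 taken at zeitgeber time (ZT, hours after lights on) 10 and 6 taken at ZT14, and the libraries were chosen by the genotype, fraction and time that their labels give. The series holds 4 kinds of liver library, each at 6 times with 6 replicates (3 fractions of wild-type liver, namely whole RNA, nuclear RNA and polysomal RNA, besides whole RNA from Bmal1-/- animals), and was designed to follow polyadenylation sites over the day. All 12 libraries come from male C57BL/6J mice labelled wild-type, which had 12 h light and 12 h dark each day and could always eat and drink. Thus ZT10 falls in the light and ZT14 in the dark. Frozen tissue was crushed in a buffer with 100 µg/mL cycloheximide, a drug that holds ribosomes on their messages, and the lysate was spun through a sucrose gradient at 41000 rpm to collect the fractions that hold several ribosomes per message. Libraries of the 3′ ends of transcripts (QuantSeq) were then made from 2 µg of RNA. The labels number the replicates from 1 to 6 and do not say that each is another animal, so the p-values below measure the spread between these libraries. In whole tissue, fewer cells of a type and less RNA per cell cannot be told apart.

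A message on polysomes is being translated, so polysomal RNA reflects both how much of a message is present and how well it is loaded with ribosomes. In liver, CLOCK and BMAL1 (the product of Arntl) activate clock genes through E-box sequences, the PER and CRY proteins hold them back, and the REV-ERB receptors (Nr1d1 and Nr1d2) repress Arntl, Clock and Cry1. Lights off is also when mice become active, eat most of their food and warm up, and heat shock factor 1 drives chaperone genes in liver at this time through heat shock elements in their promoters.

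Promoter sequences from RefSeq (assembly GRCm38.p6) show where these letters stand in 3 of the genes described below, which were chosen because they hold a match. The first is the promoter of Hspa1b, which encodes an inducible cytosolic HSP70 chaperone and had the largest rise among the genes called with the replicate block. The 2 others belong to the clock repressors Ciart, which was lower at ZT14 in 6 of 6 pairs and was called once replicate 3 was left out, and Cry1, which was higher in 6 of 6. Each is the stretch of 250 bases before the annotated start, on the minus strand, written 5′ to 3′. Capitals mark the letters GAANNTTC of a heat shock element in Hspa1b, and the E-box CACGTG in Ciart and Cry1.
Hspa1b, chr17:34959239-34959488: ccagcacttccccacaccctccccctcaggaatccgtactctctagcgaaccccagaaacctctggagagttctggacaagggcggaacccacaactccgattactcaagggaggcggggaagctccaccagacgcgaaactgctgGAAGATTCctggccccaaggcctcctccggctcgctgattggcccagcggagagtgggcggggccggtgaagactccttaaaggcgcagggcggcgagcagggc
Ciart, chr3:95882229-95882478: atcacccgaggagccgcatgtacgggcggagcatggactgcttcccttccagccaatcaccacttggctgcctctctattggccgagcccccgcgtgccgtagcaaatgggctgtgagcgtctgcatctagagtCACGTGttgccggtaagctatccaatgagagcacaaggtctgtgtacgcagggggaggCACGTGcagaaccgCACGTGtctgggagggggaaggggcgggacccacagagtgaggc
Cry1, chr10:85185055-85185304: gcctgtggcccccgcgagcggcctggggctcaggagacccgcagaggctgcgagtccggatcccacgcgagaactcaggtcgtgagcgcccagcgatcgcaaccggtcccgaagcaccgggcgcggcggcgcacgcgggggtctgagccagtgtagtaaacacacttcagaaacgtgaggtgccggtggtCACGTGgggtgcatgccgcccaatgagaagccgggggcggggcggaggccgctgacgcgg

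Both strands of 32851 RefSeq promoters, with 1 chromosome left out, were searched for the 2 motifs. The letters GAANNTTC occurred in 6.69% of them, or in 7.73% of 27025 genes, and CACGTG in 6.02% of promoters, or 6.86% of genes. Among genes that rose with or without replicate 3, GAANNTTC was found in 2 of 26 with an entry (7.69%), close to the share of all genes. Of the 16 heat shock chaperone genes with an entry, 7 (43.8%) held GAANNTTC. The matches of Hspd1 and Hspe1 are the same bases, read on opposite strands, so the genes with a match are not all separate sites. Among the 5 chaperone genes called below that have an entry, Hspa1b was the 1 with a match. To show how alike the matches are, the 28 bases around 3 of them follow, with the motif in capitals; the stretch of Hspa1b is identical in its near copy Hspa1a.
Hspa1b: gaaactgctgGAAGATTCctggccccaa
Dnaja1: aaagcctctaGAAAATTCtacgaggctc
Fkbp4: cgcttctctaGAAAGTTCtccgctcccg
Of the 27 genes of the clock lists with an entry, 6 held CACGTG (22.2%), against 10.3% of the 7811 tested genes with an entry. With or without replicate 3, it was found in 5 of 26 genes that rose (19.2%) and in 2 of 25 that fell (8%). Ciart held 3 matches, whose first bases lie 116, 58 and 44 bases before the start, and Cry1 held 1, 60 bases before it. A match describes these letters and is no measured binding site.

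The 12 libraries held 2578048 to 7593868 gene counts (median 4846677), and 10493 of 51912 genes had a mean of at least 10 counts and were tested. Levels are given in CPM (counts scaled to a common library size, after TMM scaling of the 12 libraries unless stated otherwise), and changes as log2 of ZT14 over ZT10. Values over the 6 times of day were scaled over all 36 polysomal libraries. Sums of markers are CPM of the library total, without TMM scaling. Markers of hepatocytes summed to 21455 to 63817 CPM in every library. Markers of pancreatic acinar cells, the digestive enzyme producers of the pancreas, summed to 2503 CPM in the library labelled ZT10 replicate 3 and to at most 10.5 CPM in the other 11 libraries, and 15 of the 19 markers were at 0 in all ZT14 libraries. Lung epithelium markers summed to 60.7 and 99.1 CPM in replicate 1 at ZT10 and ZT14, and to at most 2.31 CPM elsewhere. Globin and other erythroid markers summed to 5174 to 20820 CPM at ZT10 and to 2157 to 13899 CPM at ZT14, and were lower at ZT14 in 6 of 6 pairs of equal replicate number. The part of the lung and erythroid signals in the changes below was not tested.

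The library labelled ZT14 replicate 3 stood apart in its clock genes. It had the lowest depth of the 12, the lowest hepatocyte marker sum and the lowest median Spearman correlation with the other libraries (0.879). Scaled over all 36 polysomal libraries, it held 288 CPM of Elovl3, a fatty acid elongase under clock control, against 28.7 to 47.1 CPM in the other 5 libraries of its time. Clock stood at 50.9 CPM against 14.9 to 23.7 CPM, Por at 163 CPM against 627 to 916 CPM, and Cdkn1a, which encodes the cell cycle inhibitor p21, at 383 CPM against 3.19 to 47.7 CPM. All 4 values were therefore outside the range of the other ZT14 libraries. That of Elovl3 lay within the ranges at ZT22 (0 to 312 CPM) and ZT2 (210 to 440.0 CPM). Those of Clock and Por lay within the ZT2 ranges (37.7 to 60.0 CPM and 136 to 215 CPM) and outside those at ZT22 (32.5 to 44.8 CPM and 202 to 400.0 CPM), and that of Cdkn1a was above both (at most 274 CPM at ZT22 and 99.7 CPM at ZT2). Over 17 core clock genes, 31 of the 36 polysomal libraries were nearest to the mean of their labelled time. ZT14 replicates 1 and 3 were not among these. Replicate 3 was nearest to ZT22, at a distance of 1.04 on the log2 scale against 1.54 to its own time. Replicate 1 was nearest to ZT10, by a small margin (0.757 against 0.786 to ZT14). In total RNA it was the library labelled ZT14 replicate 4 that departed in the direction of polysomal replicate 3. It held 413 CPM of Elovl3 against 24.2 to 85.0 CPM and 115 CPM of Cdkn1a against 3.13 to 20.8 CPM. Nuclear RNA showed the same in replicate 4, with 408 CPM of Elovl3 against 21.3 to 73.2 CPM. These total and nuclear values are CPM of the library total, without TMM scaling. Results below are given with and without replicate 3, and those in total and nuclear RNA with and without replicate 4.

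**Figure D1:**
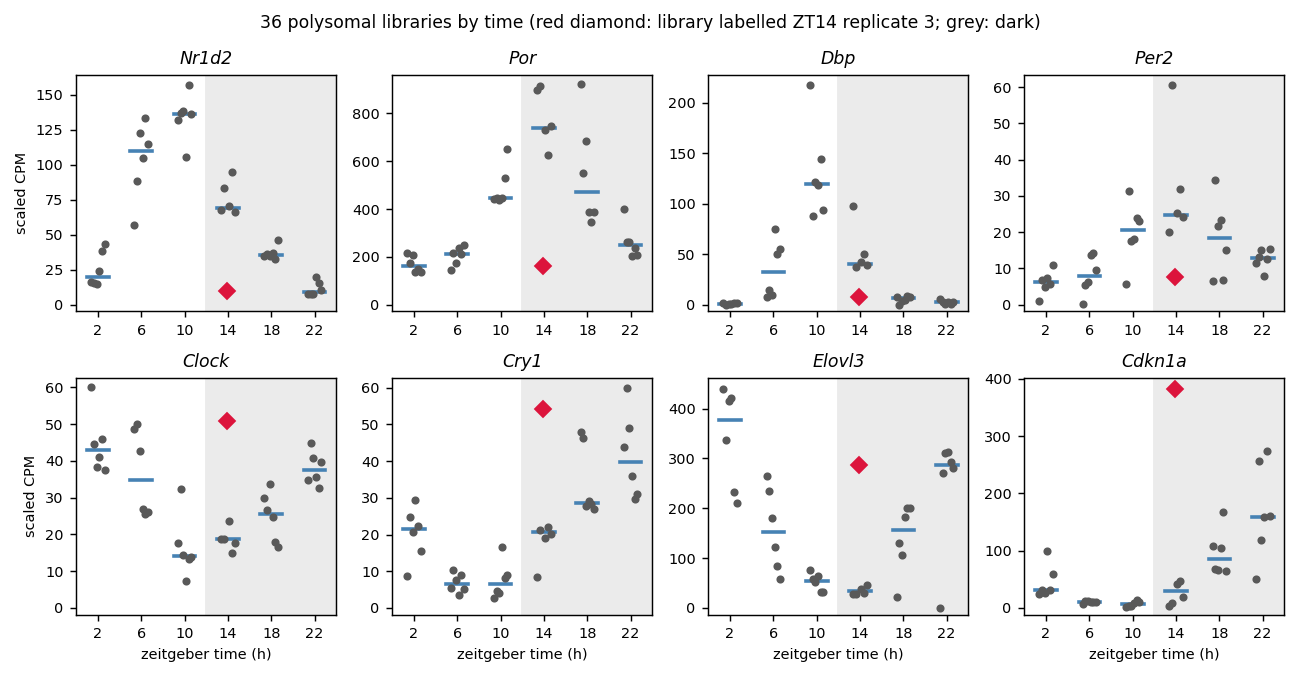
Scaled CPM of 8 clock and clock-driven genes in each of the 36 polysomal libraries (y axis, linear, from 0) by zeitgeber time in hours (x axis). Points are libraries, bars the median of a time and grey the dark phase. The red diamond is the library labelled ZT14 replicate 3, which lies outside the other 5 ZT14 libraries in all 8 panels.

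Without regard to replicate numbers, 0 of the 10493 genes passed an adjusted p of 0.05 in edgeR's quasi-likelihood test with Benjamini-Hochberg adjustment, 473 had an unadjusted p under 0.05, and DESeq2 called 18 (0.172%). Libraries of the same number deviated together in the 6 pairs (correlations of 0.17 to 0.65), although only 7 of the 12 libraries correlated best with their own number, and with the replicate number as a block edgeR called 59 genes, 0.562% of those tested: 24 higher (0.229%) and 35 lower (0.334%) at ZT14. Of the 35 lower genes, 12 were pancreatic enzyme genes such as Amy2a5, Pnlip and Cela3b with at least 99.2% of their counts in ZT10 replicate 3, and they are not counted further as changes with time. The other 47 genes comprised 24 that rose and 23 that fell. The direction was the same in 6 of 6 pairs for 46 of them, against 5.66% of all genes. The 2 groups of libraries did not overlap for 10 of the 47, against 0.41% of all genes, but the calls were made on the same pairs and this describes them only. "Rose" and "fell" below refer to calls of this blocked test.

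The 47 calls kept their direction in each of 6 fits that left out 1 replicate number, but few kept their significance. Only 7 were called in all 6 of these fits, among which Hsp90aa1, Palld and Gm8355 rose, and Trib3, Fbxo21 and Ank3 fell. Each of the other 40 lost its call in at least 2 of these fits. Without replicate 3, 57 of 10606 genes were called (0.537%), 31 higher (0.292%) and 26 lower (0.245%), and 36 of the 47 were among them. Without replicate 1, 30 genes were called (0.289%), 15 of the 47 among them. The pancreatic genes also carried weight in the adjustment: with the marker genes taken out of the fit, 37 genes were called, 35 of the 47 among them.

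**Figure D2:**
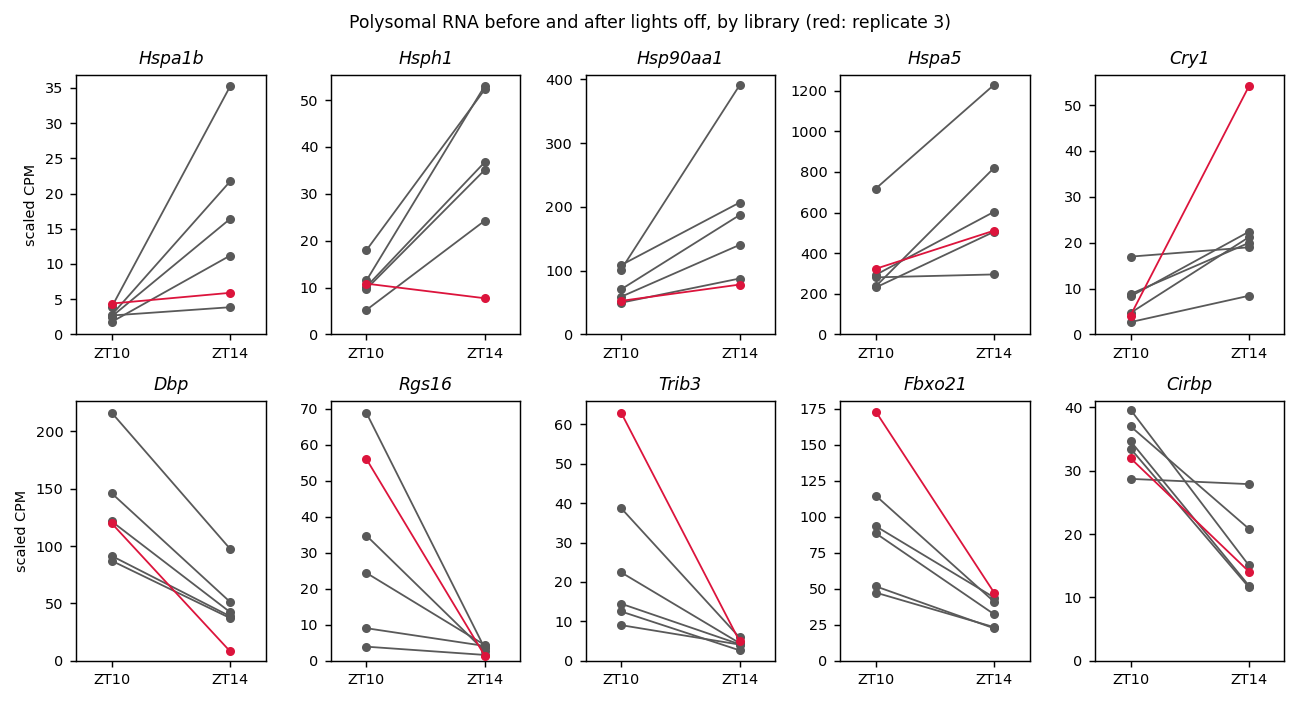
Scaled CPM (y axis, linear, from 0) of 10 genes in the 6 libraries at ZT10 and the 6 at ZT14, with a line for each pair of equal replicate number. Red is replicate 3. Trib3, Fbxo21 and Cirbp are lower in every ZT14 library than in every ZT10 library, and Hsph1 is higher in 5 of 6 pairs, replicate 3 excepted.

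Some cytosolic chaperone genes rose at lights off. Of 18 tested genes of the heat shock list, 6 rose with the block and 0 fell (0 were called without it), and without replicate 3 Bag3, a co-chaperone of HSP70, made 7. The list's median change was 0.56, against 0.01 over all tested genes, and its median was above 0 in 6 of 6 pairs (0.16 to 0.76). Hsp90aa1, the inducible HSP90, lay between 49.8 and 109 CPM at ZT10 (median 64.9) and between 78.2 and 390 CPM at ZT14 (median 164). The ranges overlapped, and the lowest ZT14 library was replicate 3. Its log2 change was 1.16 (SE 0.18, adjusted p = 0.00311, edgeR with the block), and 1.27 without replicate 3.

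Hspa1b was at 1.79 to 4.39 CPM at ZT10 (median 2.73) and at 3.87 to 35.2 CPM at ZT14 (median 13.8). ZT14 replicates 3 and 4 reached 5.91 and 3.87 CPM, the first just above and the second within the ZT10 range, and the other 4 libraries were clear of it. The log2 change was 2.16 (SE 0.39, adjusted p = 0.0121), and 2.46 without replicate 3. Hspa1a, a near-identical copy, did not reach 10 counts, so reads of the pair may be split and the level of Hspa1b is uncertain. Hsph1, which encodes the HSP110 exchange factor of HSP70, rose by 1.62 (SE 0.28, adjusted p = 0.0109) from a median of 10.5 CPM to 35.95 CPM, although replicate 3 fell from 10.8 to 7.72 CPM. Without that pair its change was 1.93 (adjusted p = 4.53e-05). All 3 remaining members rose in 6 of 6 pairs: Hspa8, the constitutive HSC70, by 1.06 (SE 0.23, adjusted p = 0.0453), its HSP40 partner Dnajb1 by 1.07 (SE 0.21, adjusted p = 0.0238), and the HSP90 co-chaperone Chordc1 by 0.90 (SE 0.17, adjusted p = 0.0161). Each of the 5 apart from Hsp90aa1 lost its call without replicate 1, with adjusted p from 0.0706 to 0.266, and in 3 more of the 6 fits.

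The 12 other tested members were not called. Cacybp was higher in 6 of 6 pairs (log2 0.60, adjusted p = 0.194), and Dnaja1, another HSP40, in 5 of 6 (0.52, adjusted p = 0.361). The mitochondrial chaperones Hspd1 and Hspe1 had changes of 0.49 and 0.20, and the small heat shock protein Hspb1 one of -0.44. Over the 6 times of day, the mean level of Hspa1b, Hsph1, Hspa8, Dnajb1 and Chordc1 was highest at ZT14 (15.7, 34.9, 38.5, 33.4 and 60.3 CPM). That of Hsp90aa1 was lowest at ZT10 (74.0 CPM), stood at 182 CPM at ZT14 and was highest at ZT22 (279 CPM), where 1 library lay far above the rest. Cirbp, a cold-inducible RNA-binding protein whose message is known to fall as temperature rises, fell by 1.07 on the log2 scale (SE 0.22, adjusted p = 0.03), from 28.7 to 39.6 CPM at ZT10 to 11.6 to 27.9 CPM at ZT14 without overlap. The margin was narrow, since the pair numbered 5 held 28.7 and 27.9 CPM. Cirbp kept its call in only 2 of the 6 fits that left out a replicate number (adjusted p up to 0.147, edgeR with the block). The other gene of its list, Rbm3, was at 52.8 CPM and 61.1 CPM (medians, adjusted p = 0.738).

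**Figure D3:**
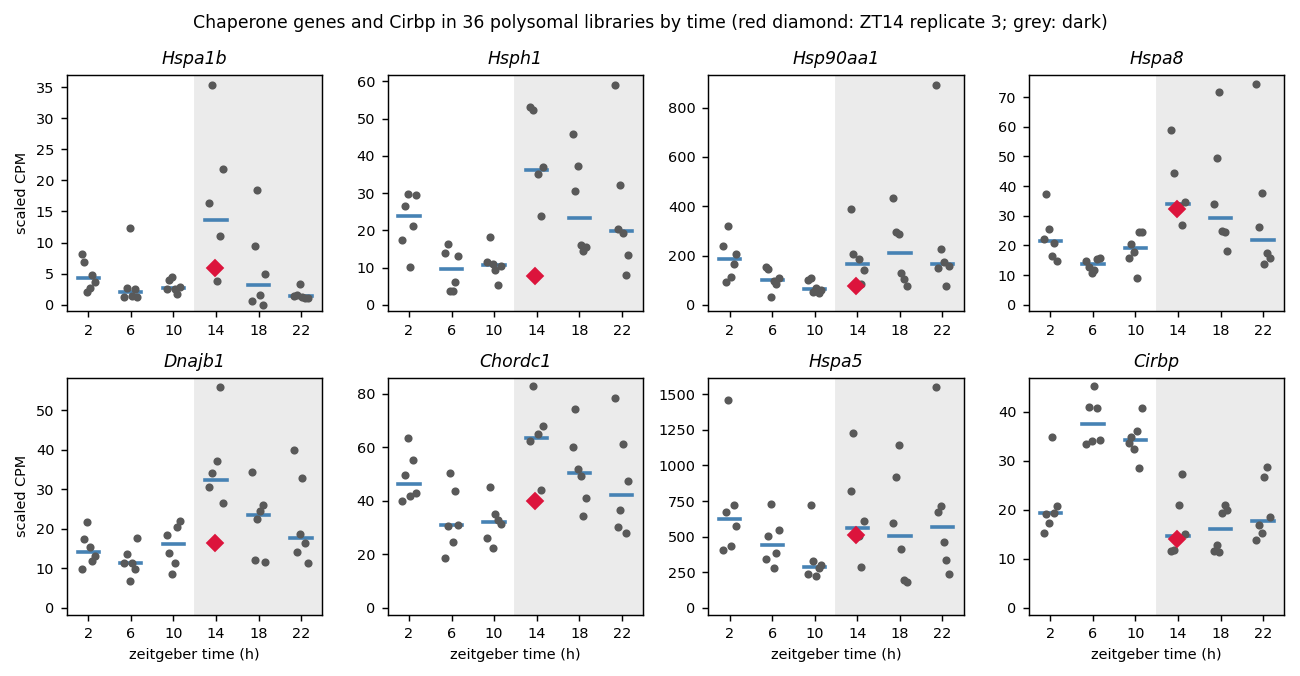
Scaled CPM (y axis, linear, from 0) of 7 chaperone genes and Cirbp in the 36 polysomal libraries by zeitgeber time in hours (x axis). Points are libraries, bars medians, grey the dark phase and the red diamond the library labelled ZT14 replicate 3. The medians of Hspa1b, Hsph1, Hspa8, Dnajb1 and Chordc1 are highest at ZT14, and that of Cirbp is lowest there.

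Chaperones of the endoplasmic reticulum followed in part. Of 19 genes of that list, 2 rose and 0 fell, with and without replicate 3, and the median change was 0.105. Hspa5 encodes BiP, the HSP70 of this compartment. It lay between 231 and 718 CPM at ZT10 (median 287) and between 295 and 1229 CPM at ZT14 (median 558). The highest ZT10 value belonged to replicate 2, whose ZT14 library was also the highest of its group. The change was 0.91 (SE 0.19, adjusted p = 0.034). Creld2, an endoplasmic reticulum stress gene, rose by 1.07 (SE 0.24, adjusted p = 0.0498) and just passed the threshold. Manf, a secreted stress factor, was higher in 6 of 6 pairs (0.70) but not called (adjusted p = 0.104), and Calr, the lectin chaperone calreticulin, was lower in 6 of 6 pairs (-0.19, adjusted p = 0.808). Both Hspa5 and Creld2 lost their calls in 4 of the 6 fits that left out a replicate number (adjusted p up to 0.146 and 0.227).

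Clock genes moved in both directions, and most of them did not pass the test. Of 10 clock repressors, Cry1 rose and 0 fell, and without replicate 3 Nr1d2 and Ciart fell as well. The list's median was -0.70, and below 0 in 6 of 6 pairs (-1.87 to -0.24). Cry1 ran from 2.69 to 17.0 CPM at ZT10 (median 6.50) and from 8.43 to 54.1 CPM at ZT14 (median 20.6), and the highest value was that of replicate 3. Its change was 1.64 (SE 0.35, adjusted p = 0.0453), and 1.27 (adjusted p = 0.0447) without that pair. Cry1 kept its call in only 2 of the 6 fits that left out a replicate number (adjusted p up to 0.177, edgeR with the block). Nr1d2 ran from 109 to 158 CPM at ZT10 and from 9.996 to 96.2 CPM at ZT14. The groups did not overlap, yet the adjusted p was 0.348 with all pairs (log2 -1.16) and 0.0195 without replicate 3 (log2 -0.80). Ciart had a change of -1.87 (adjusted p = 0.0511), and of -1.60 (adjusted p = 0.0378) without replicate 3.

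Nr1d1 had a larger fitted change than either (-2.50, SE 0.61), from 17.6 to 148 CPM to 0.909 to 12.3 CPM with no overlap. It was not called (adjusted p = 0.256, and 0.0572 without replicate 3). Per1 was lower in 6 of 6 pairs (-0.91, adjusted p = 0.322) and Per2 higher in 5 of 6 (0.47, adjusted p = 0.718), replicate 3 being the exception. Among the activators, Clock was at a median of 13.8 CPM and 18.8 CPM, and Arntl did not reach 10 counts.

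The clock's output factors changed in opposite directions. Dbp, a PAR bZIP activator transcribed by CLOCK and BMAL1, fell from 87.1 to 216 CPM (median 121) to 8.18 to 97.5 CPM (median 40.5), and 1 ZT14 library, replicate 1, lay within the ZT10 range. The change was -1.63 (SE 0.28, adjusted p = 0.0182), and -1.33 (adjusted p = 0.000195) without replicate 3. Nfil3, a repressor that competes for the same D-box sites, rose by 1.45 (SE 0.29, adjusted p = 0.0268) from a median of 4.93 CPM to 14.4 CPM. It missed the threshold without replicate 3 (1.24, adjusted p = 0.0572). Of the 6 fits that left out a replicate number, Nfil3 was called in 1 (adjusted p up to 0.103, edgeR with the block). Dbp was called in 3 of these fits (adjusted p up to 0.09965). The related factors Tef and Hlf were not called (-0.19 and 0.18). Dbp peaked at ZT10 among the 6 times (131 CPM, against 45.8 CPM at ZT14 and 1.08 CPM at ZT2), whereas Nfil3 was lowest at ZT10 (5.59 CPM) and highest at ZT2 (36.03 CPM).

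The list of glucose, glycogen and insulin response had a median change of -0.01 over 19 tested genes. Pck1, the gate of gluconeogenesis, was lower in 6 of 6 pairs, with medians of 788 and 344 CPM (-0.80, adjusted p = 0.0577). Ppp1r3b, a glycogen-targeting subunit, was higher in 6 of 6 pairs, with medians of 103 and 328 CPM (1.56, adjusted p = 0.143).

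Trib3, a pseudokinase induced by ATF4 in fasting and known as a brake on insulin signalling, fell from 9.04 to 63.0 CPM to 2.66 to 5.92 CPM without overlap (-2.30, SE 0.29, adjusted p = 0.00058, edgeR with the block; -2.05 without replicate 3). The highest ZT10 library was replicate 3. The other 8 tested genes of the ATF4 list were not called, and Atf4 itself had a change of 0.30 (adjusted p = 0.685). Plin5, which coats lipid droplets in oxidative tissue, rose by 0.99 (SE 0.18, adjusted p = 0.0121). Chka, a choline kinase of phosphatidylcholine synthesis, rose by 1.63 (SE 0.33, adjusted p = 0.0239), with 53.2 CPM in ZT14 replicate 3 against 9.59 to 14.9 CPM in the other libraries of that time, and was not called without it (1.32, adjusted p = 0.0704). Tfrc, the transferrin receptor, rose by 1.18 (SE 0.22, adjusted p = 0.018) and was the 1 called gene of 10 in the iron list.

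Lipid synthesis gave few calls. Of 14 fatty acid synthesis genes 0 were called with all pairs. Without replicate 3, 2 rose: Thrsp, a lipogenic regulator, by 1.19 (adjusted p = 0.0244), and the elongase Elovl6 by 1.01 (adjusted p = 0.00922). Srebf1 and Fasn had changes of -0.47 and 0.30 with all pairs. None of the 23 cholesterol genes was called, although 21 had an unblocked change above 0 (50.1% of all genes did). Their blocked median of 0.26 was 0.14 without replicate 3, whose pair had a median of 0.97. Bile acid, urea cycle, one-carbon and xenobiotic lists had 0 calls and medians of -0.12 to 0.06.

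**Figure D4:**
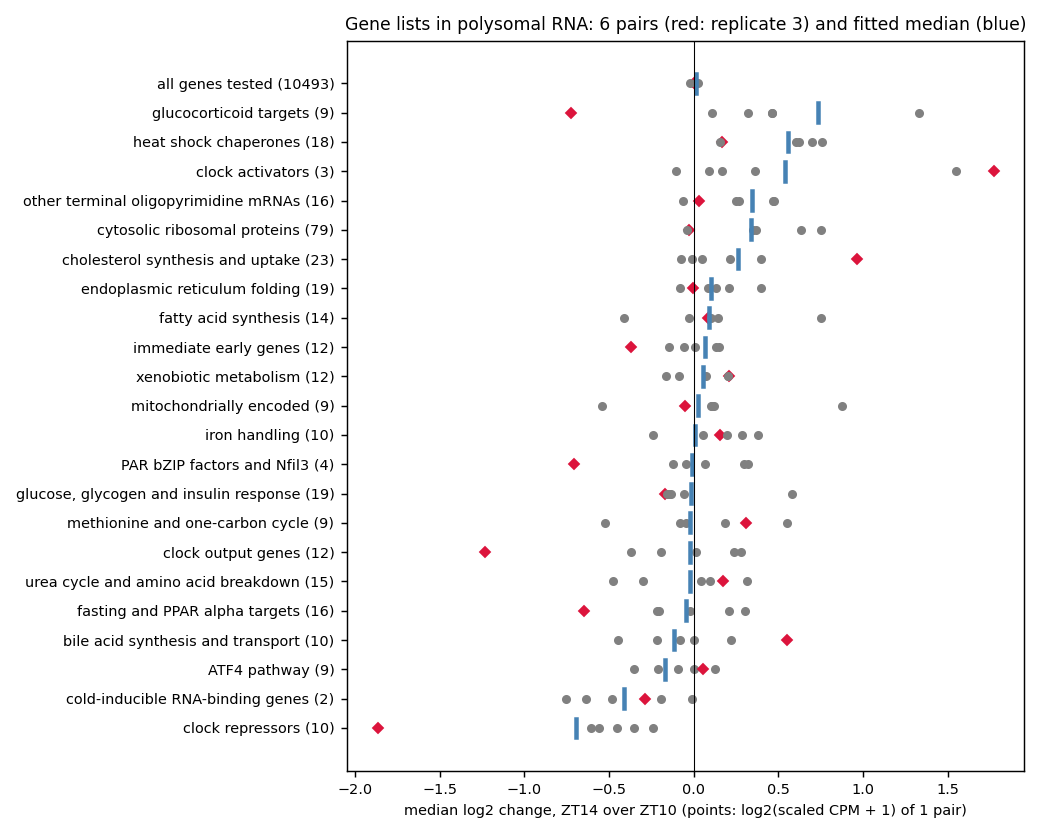
Median log2 change of ZT14 over ZT10 (x axis) for 22 gene lists and for all tested genes, with the number of tested genes in brackets. Points are the 6 pairs of equal replicate number, the red diamond is replicate 3, and the blue bar is the median of the fit with the replicate block. All 6 pairs of the heat shock list lie above 0 and all 6 of the clock repressors below it.

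Messages of the translation machinery were slightly higher at ZT14 in polysomal RNA, and all but 1 missed the test. Of 79 genes of cytosolic ribosomal proteins, 76 had an unblocked change above 0 (50.1% of all genes did), and the blocked median was 0.34. The pair medians ran from -0.04 to 0.75 and were above 0 in 4 of 6 pairs, replicates 3 and 5 being just below 0. Rps16 was the 1 gene called (0.71, SE 0.16, adjusted p = 0.0466), at 19.1 to 88.8 CPM at ZT10 and 32.3 to 135 CPM at ZT14, and it lost its call in each of the 6 fits that left out a replicate number. Among 16 other messages with a terminal oligopyrimidine start, which growth signals load onto ribosomes as they do ribosomal protein messages, 0 were called and the median was 0.35. The elongation factor Eef2 was higher in 6 of 6 pairs (0.45, adjusted p = 0.359). The medians of the ribosomal protein list were 0.13 in total RNA and 0.04 in nuclear RNA, and that of the other such messages 0.05 in both.

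The 23 falls included genes of signalling and protein turnover. Rgs16, which shuts off G protein signals and is known to be fasting-induced in liver, had the largest fall among genes with at least 50 counts (-3.01, SE 0.48, adjusted p = 0.0189). It ran from 3.91 to 68.8 CPM at ZT10 and from 1.36 to 4.36 CPM at ZT14, so that 1 ZT10 library lay within the ZT14 range, and the change was -2.71 without replicate 3. Fbxo21, a substrate receptor of a ubiquitin ligase, fell by 1.35 (SE 0.17, adjusted p = 0.000417) from 47.4 to 173 CPM to 22.5 to 47.2 CPM, without overlap. It had the smallest adjusted p of the 47 and was called in all 6 fits that left out a replicate number (-1.42 to -1.25). Ank3, the membrane scaffold ankyrin-G, fell by 1.39 (SE 0.24, adjusted p = 0.0078) and was also called in all 6.

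The transcription factor genes Klf9, Junb and Cebpb also fell. Klf9, a glucocorticoid-induced repressor, fell by 0.91 (SE 0.17, adjusted p = 0.0136) from a median of 374 CPM to 198 CPM. Fkbp5, another glucocorticoid target, had a change in the other direction (1.19, adjusted p = 0.18), which was called without replicate 3 (1.54, adjusted p = 0.000575). Junb, an immediate early AP-1 subunit, fell by 1.10 (SE 0.23, adjusted p = 0.0352) without overlap, and was the 1 called gene of 12 on the immediate early list. Cebpb, a C/EBP factor of fasting and acute phase, fell by 0.93 (SE 0.16, adjusted p = 0.0105) from 78.9 to 192 CPM to 47.4 to 83.3 CPM. Junb was called in only 1 of the 6 fits that left out a replicate number (adjusted p up to 0.177, edgeR with the block). It was not called without replicate 3 (adjusted p = 0.0708). Klf9 and Cebpb each lost their call in 2 of the 6 fits (adjusted p up to 0.0544 and 0.0632).

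Bmf, which encodes a cell death activator of the BCL-2 family, had a fitted change of -3.28 on a mean of 11.7 counts, and its call was lost in each of the 6 fits. Other falls included Mir22hg, the host transcript of a microRNA (-1.11, adjusted p = 0.018), Pim3, a kinase (-0.87, adjusted p = 0.0205), and Hal, the first enzyme of histidine breakdown (-0.79, adjusted p = 0.0461). Among the other rises were Palld, an actin-binding protein called in all 6 fits (1.01, SE 0.17, adjusted p = 0.00605), and Rcan1, an inhibitor of calcineurin (1.04, adjusted p = 0.0217). Gm15459 and Gm8355 also rose (2.00 and 1.32). They are predicted genes whose reads may come from a similar gene, so these values are uncertain.

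Leaving out replicate 3 brought in 21 calls. Beyond those named above, they included Cdkn1a, which had a change of 2.14 with all pairs and an adjusted p of 0.609. Without replicate 3, whose ZT14 library held 383 CPM, it rose by 1.40 (adjusted p = 0.0209). Clec2h, a lectin-like receptor gene, fell by 2.01 (adjusted p = 0.000575), and Rnf152, a ubiquitin ligase gene, fell by 1.04 (adjusted p = 0.00134). The neighbouring entries Hsd3b7 and SETD1A fell by 0.75 and 0.74 with near-equal levels in each library, so they may share reads and are uncertain.

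Across the 6 times of day, 12 of the 24 rising genes had their highest mean at ZT14, 5 at ZT18, 5 at ZT2 and 2 at ZT22. Their lowest mean fell at ZT10 in 11 genes and at ZT6 in 10. Of the 23 falling genes, 16 were highest at ZT10 and 5 at ZT6. These profiles include the libraries used for the calls and are a description.

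Total RNA of the same times changed in the same direction. Fitted on its own without a block, total RNA gave 133 calls of 12040 genes (1.1%), 65 higher (0.54%) and 68 lower (0.565%), and 189 without its replicate 4 (1.57%). All 47 genes had the same direction in total RNA, against 67.6% of the 10341 genes tested in both, and 25 of the 47 were called there. Without replicate 4 the direction was the same in 47 of 47 and 28 were called. The median change of the 24 rises was 1.07 in both fractions, and that of the 23 falls was -1.02 in polysomal and -0.94 in total RNA. In nuclear RNA, where 8 of 11099 genes were called (0.0721%), 45 of 46 tested genes had the same direction, against 62.6% of all genes, and 3 were called. Without its replicate 4, nuclear RNA gave 11 calls (0.0997%), the direction was the same in 45 of 46 and 5 were called. Whether polysomal, total and nuclear libraries come from the same livers is not given in the sources used here.

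A difference between polysomal and total RNA in the change across lights off was not called for any gene. The interaction test called 0 of 11505 genes by edgeR (135 at an unadjusted p under 0.05) and 0 by DESeq2 (193), and the smallest adjusted p among the 47 genes was 1. Against nuclear RNA 0 of 11088 genes were called (157 at an unadjusted p under 0.05, and 0 by DESeq2 with 204). With the libraries that stand apart left out in both fractions the counts were 0 and 0 (151 and 176 at an unadjusted p under 0.05). Point estimates in the 2 fractions were apart for Bmf (-3.28 polysomal, -1.45 total), Hspa1b (2.16 and 3.13), Gm15459 (2.00 and 1.21), Rps16 (0.71 and 0.07) and Cebpb (-0.93 and -0.31). These polysomal values come from the fit with the replicate block and the total values from a fit without it. Their gaps therefore mix fraction and model, whereas the interaction fit used no block in either fraction. The difference for Hspa1b in the interaction fit was -0.69 (SE 0.55) and that for Cebpb -0.66 (SE 0.32), so that differences of this size could not be told from 0 at this spread. Total RNA called 9 genes of the heat shock list, with a median change of 0.68 against 0.56 in polysomal RNA.

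**Figure D5:**
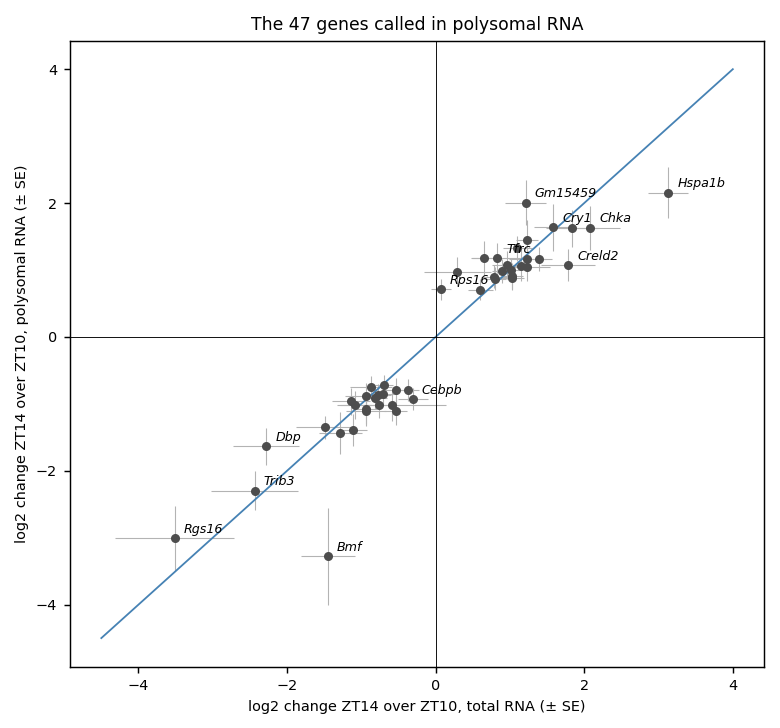
Log2 change of ZT14 over ZT10 in polysomal RNA, from the fit with the replicate block (y axis), and in total RNA, from its own fit without a block (x axis), for the 47 called genes. Bars are standard errors worked back from the F test, and the line marks equal change. All 47 genes have the same direction in both, and genes named in the plot include Hspa1b (2.16 and 3.13) and Rps16 (0.71 and 0.07).

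Of 16042 sites tested, 0 were called without the block (443 at an unadjusted p under 0.05; DESeq2 called 12) and 2 with it (0.0125%). Positions are those of the authors' site list in mm10, and both sites lie in or within 1000 bases past the end of the RefSeq gene on the same strand. A site of Fbxo21 at chr5:118009891-118010018 (plus strand) fell by 1.38 (SE 0.19, adjusted p = 0.035) from a mean of 102 CPM to 36.8 CPM. A site of Rgs16 at chr1:153745362-153745469 (plus strand) fell by 3.08 (SE 0.44, adjusted p = 0.035) from 42.4 to 3.68 CPM. Without replicate 3 there were 6 calls, which added sites of Hsph1 (chr5:149616842-149617108, minus strand), Hspa1b (chr17:34956428-34956554, minus strand) and Fkbp5 (chr17:28399093-28399224, minus strand) that rose and a site of Clec2h (chr6:128676637-128676705, plus strand) that fell. The 68 genes called with or without replicate 3, pancreatic genes apart, had 129 tested sites in 63 genes, and 128 of these sites had the direction of their gene, against 76.6% of all sites. Reads at sites are part of the gene counts and these genes were chosen for their change, so this describes the sites and supports nothing.

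The share of a site within its gene, the measure the series was designed for, gave 0 calls of 10380 sites by edgeR, with the block (245 at an unadjusted p under 0.05) and without it (138). In the 36 called genes with at least 2 such sites, the 91 shares moved by -14.5 to 14.6 percentage points and 3 had an unadjusted p under 0.05. In Hspa5 the upstream site at chr2:34774031-34774242 (plus strand) went from 33.1% ± 5.41 to 41.5% ± 10.8 of the gene's site counts (SD, n = 6), and the downstream site at chr2:34776164-34776480 from 64.5% ± 5.07 to 55.7% ± 11.7. Both had an adjusted p of 0.9999 (edgeR with the block). The median standard error of a blocked share change was 0.26 on the log2 scale, and 444 of the 10380 shares moved by over 10 points. The smallest shift in share that the design could detect was not determined.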

How the data were processed

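Liver 3′ mRNA-seq of 12 wild-type polysomal libraries was used, with the 12 total and 12 nuclear libraries of the same times and the other polysomal libraries for comparison. Groups and replicate numbers come from the sample titles. The authors deposited raw counts per gene and raw counts per polyadenylation site, 1 column per library, with 0 columns left without a sample; their normalized tables were not used. STAR 2.4.2a, HOMER and edgeR, and the builds mm10 and GRCm38.p5, are named without their roles per the submitters' processing notes. The counting rules are not given in the sources used here.

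Counts were tested in R 4.3.3 with edgeR 4.0.16 (robust quasi-likelihood F test, TMM factors, Benjamini-Hochberg adjustment over all features of a fit, threshold 0.05), for features that averaged at least 10 counts per library. Standard errors (SE) were worked back from this test, as the size of the log2 change over the square root of F. Site shares were fitted with the log of the gene's summed site counts (plus 0.5) as offset, over sites holding 5% or more of a gene that averaged 50 counts or more. Sites of the authors' filtered list (29199 of 86780) were given to RefSeq genes on the same strand, up to 1000 bases past the end. For 2350 genes without a promoter entry, the strand was the one that held at least 90% of the site counts within the gene. A further 1064 sites were left out because the site counts of their gene were under 0.3 or over 1.5 of its gene counts. DESeq2 1.42.0 was an alternative. The scripts were tested on simulated data. Among 30 pairs of libraries within a group, 0 held identical counts (lowest chi-square over its degrees of freedom, 24.1). Depth was 2578048 to 7593868 gene counts, which limits low genes most.

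Replicate numbers paired the libraries: deviations from the time means correlated by 0.17 to 0.65 within all 6 numbers. A library correlated best with its own number at the other time in 7 of 12 cases; those numbered 3 did so with number 2 and those numbered 4 with number 5. The pairing is a hint from the data, since the labels do not say what a number shares. The fit with the replicate number as a block is therefore given beside the fit without it. The rule for named genes (the 12 largest rises and falls among called genes that averaged 50 counts or more, and up to 4 members per list) named no gene without the block, because 0 passed. It was applied to the blocked fit after these counts were seen, and further genes that change without replicate 3, uncalled list members and genes under 50 counts were named after their values were seen. Members and lists were chosen with earlier results of these data known. Alternatives were DESeq2, other scaling factors, other count minimums, all 36 polysomal libraries, batches of replicates, and libraries left out. Those with the block, and those that drop both libraries numbered 3 or the ZT14 libraries that stand apart, were chosen after seeing the data. Promoters (RefSeq, GRCm38.p6) were found for 51 of the 68 genes called with or without replicate 3. The build of the RefSeq coordinates used to assign sites was checked over all sites of the filtered list, and the check left out no site. Of these sites, 21.4% lay within 25 bases of a gene end, against 0.199% after a shift of 5000 bases. Results of some genes that the counts include are not reported here.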

Additional observations from a re-analysis of the deposited data

Results flagged for a closer look

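In each group of 6 libraries, the gap from the highest or lowest library to its neighbour was set against the whole range of the group. Of 198 groups (99 named genes at 2 times), 28 held a library whose gap exceeded 0.625 of the range. Chance flags about 1 in 20 groups of normally distributed values, whereas CPM were used here without a log. The named genes also include pancreatic genes called through ZT10 replicate 3 and genes called only without replicate 3. The number of flags therefore cannot be set against that rate, and the flags are a description.

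Pancreatic enzyme genes gave 14 of the 28. In ZT10 replicate 3, Amy2a5 stood at 667.5 CPM, 2210010C04Rik at 389.1, Cela3b at 252.9, Ctrb1 at 167.7, Cpb1 at 163.6, Pnlip at 163.6, Try5 at 161.8, Try4 at 116.1, Prss2 at 100.4, Zg16 at 90.56, Amy2b at 67.34 and Cpa1 at 66.57 CPM. The next library of that time held at most 0.2992 CPM of any of them. In ZT14 replicate 3, Amy2a5 (8.633 CPM) and Pnlip (0.4544 CPM) were also above the rest of their group. These 2 flags rest on few reads: outside ZT10 replicate 3, no library held more than 19 counts of Amy2a5 or 2 of Pnlip.

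ZT14 replicate 3 gave 8 more. It was above the other libraries of its time for Crot (411.6 CPM), Cdkn1a (382.6 CPM), SETD1A (292.6 CPM), Hsd3b7 (279.9 CPM), Cry1 (54.07 CPM), Chka (53.16 CPM) and Clock (50.89 CPM), and below them for Nr1d2 (9.996 CPM, the next being 65.54 CPM). Calls of Crot, Cdkn1a, Hsd3b7, SETD1A and Nr1d2 appeared once replicate 3 was left out, and that of Chka was lost.

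The other 6 were single libraries: Hspa5 (717.9 CPM) and Gm15459 (39.9 CPM) in ZT10 replicate 2, Junb (41.8 CPM) and Inhba (14.45 CPM) in ZT10 replicate 3, Palld (85.15 CPM) in ZT14 replicate 2 and Pim3 (225.7 CPM) in ZT14 replicate 5. All were the highest of their group.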

How the results depend on the processing

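No called result changed direction under the settings run, and the counts of called genes depended on the fit. Without the replicate block edgeR called 0 genes, 0 to 3 with 1 library left out, 1 in all 36 polysomal libraries, 3 with all genes of at least 1 count, and DESeq2 called 18. With the replicate block it called 59, or 60 with median-ratio factors, 27 in all 36 libraries, 30, 28, 57, 31, 39 and 27 with replicate numbers 1 to 6 left out in turn, 37 without the pancreatic marker genes, 152 with all genes of at least 1 count, and 106 by DESeq2 with the block. Dropping both libraries numbered 3 without the block left 0 calls (450 at an unadjusted p under 0.05). For sites the count was 0 without the replicate block (DESeq2 12, 0 to 1 with 1 library left out) and 2 with it (0 to 6 with 1 number left out). Site shares and both interaction tests gave 0 calls in every setting run, the block and DESeq2 (interactions) or edgeR's splicing test (shares) included. Why the settings differ was not tested, apart from the fits that use fewer libraries or more genes. Some medians of short lists moved: that of the ATF4 genes ran from -0.43 in replicates 4 to 6 to 0.23 in replicates 1 to 3. Low genes such as Bmf (11.7 mean counts) are limited by depth.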

Other observations

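Metallothioneins, small metal-binding proteins induced by glucocorticoids and zinc, were higher at ZT14 in 5 of 6 pairs but not called. Mt2 lay between 5.21 and 70.2 CPM at ZT10 (median 18.4) and between 4.998 and 231 CPM at ZT14 (median 119), with a log2 change of 2.08 (SE 0.89, adjusted p = 0.623, edgeR with the block). Mt1 had medians of 72.6 and 310 CPM (1.47, SE 0.61, adjusted p = 0.609). In total RNA the changes were 0.83 and 0.77, and neither was called.

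Mlxipl, which encodes the glucose-sensing factor ChREBP, was lower at ZT14 in 6 of 6 pairs. It lay between 29.2 and 53.1 CPM at ZT10 and between 20.1 and 28.2 CPM at ZT14, so the groups did not overlap, but it was not called (-0.64, adjusted p = 0.209). The change in total RNA was 0.13 (adjusted p = 0.775). These genes were singled out after their values were seen.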
